A study of Mus musculus with 6 samples.

Results

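The genes described here are the 8 genes Celsr1, Vangl1, Vangl2, Prickle1, Prickle2, Dvl2, Daam1 and Daam2, which encode core proteins of planar cell polarity and the Daam formins. Open chromatin near them was read from ATAC-seq, which cuts accessible DNA with the Tn5 transposase and calls a peak where cuts pile up. Peaks from the 6 libraries that overlapped by at least 1 bp were joined to 1 region, and a region belonged to a gene when it overlapped the RefSeq span of the gene on GRCm38 extended by 20 kb on either side. The 8 genes held 106 of the 89410 regions. They were chosen by name with the f/f against KO results of these same lists known, and Daam2 and Prickle1 also stand in a list of opened genes that the study made from these libraries. The presence of peaks and their ranks at Daam2 and Prickle1 are therefore given as a description, with no test.

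Planar cell polarity is the branch of Wnt signalling that orients cells within a sheet and steers directed migration. Vangl and Prickle sort to the same side of a cell and Frizzled and Dvl to the opposite side, Celsr links the sides across the contact of neighbouring cells, Dvl also carries the signal inside the cell, and Daam formins bind Dvl and build unbranched actin filaments. The pathway is best known from the closure of the neural tube and from the aligned hair cells of the inner ear.

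OB Fam20c f/f is an immortalized mouse osteoblast line in which both Fam20c alleles carry loxP sites, and OB Fam20c KO was made from it by infection with a lentivirus for Cre recombinase. Fam20c encodes a kinase of secreted proteins. Each group had 3 libraries from 50000 nuclei each, with a transposition of 30 min at 37 °C. Both groups come from 1 line, and nothing says that the libraries are separate cultures, so the spread between them may be technical. The effect of losing Fam20c and that of Cre infection and later culture cannot be told apart in this design.

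The lists held 62781 to 74797 peaks in 5 libraries and 32958 in KO replicate 3, which stands apart by its short list. Each result below is given with this library and, where it rests on it, without it. Of 12 osteoblast marker genes, 10 had a peak in each of 5 libraries and 9 in KO replicate 3, and Ibsp and Bglap had none in any library. Markers of other cell types also carried peaks, among them all 3 of blood in 5 libraries and 1 in KO replicate 3, so that presence of a peak did not separate cell types. Fam20c itself had 3 regions, with a peak in 2, 1 and 2 of them in f/f and in 2, 1 and 1 in KO, which does not check the deletion, since a floxed part can be lost without a change in the number of peaks. The standing of a peak is its percentile rank by the authors' −log10 q within its own list, where 100 is the highest. A region without a peak did not pass the authors' threshold in that library, which does not mean that the chromatin was closed.

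The start sites on which the results turn are those of Daam2, of its paralogue Daam1 and of Prickle2, where 2 of the 4 listed starts are compared. Daam1 and Daam2 have 2 listed starts each, of which the first is shown. The 250 bases before each start are shown 5′ to 3′ on the strand of the gene, from the RefSeq promoter table of GRCm38.p6. They are chr17:49564338-49564587 (minus strand) for Daam2, chr12:71830818-71831067 (plus strand) for Daam1, chr6:92706185-92706434 (minus strand) for the first start of Prickle2 and chr6:92481393-92481642 (minus strand) for its inner start. Capitals mark matches, on either strand, to AP-1 (TGANTCA), E-box (CANNTG), the TCF4-type E-box (CATCTG, which the E-box includes), TCF/LEF (CTTTGAT) and CRE (TGACGTCA), the last of which was added after the Daam2 sequence had been read.
Daam2: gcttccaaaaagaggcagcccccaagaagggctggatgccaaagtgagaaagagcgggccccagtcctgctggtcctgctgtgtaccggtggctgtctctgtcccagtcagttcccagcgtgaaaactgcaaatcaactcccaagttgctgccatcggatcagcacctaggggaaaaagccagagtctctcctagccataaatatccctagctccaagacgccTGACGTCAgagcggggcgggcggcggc
Daam1: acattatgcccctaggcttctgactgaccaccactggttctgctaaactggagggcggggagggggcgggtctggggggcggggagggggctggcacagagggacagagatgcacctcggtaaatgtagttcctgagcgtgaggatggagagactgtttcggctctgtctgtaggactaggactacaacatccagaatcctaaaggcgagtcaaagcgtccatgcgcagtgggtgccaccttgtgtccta
Prickle2 first start: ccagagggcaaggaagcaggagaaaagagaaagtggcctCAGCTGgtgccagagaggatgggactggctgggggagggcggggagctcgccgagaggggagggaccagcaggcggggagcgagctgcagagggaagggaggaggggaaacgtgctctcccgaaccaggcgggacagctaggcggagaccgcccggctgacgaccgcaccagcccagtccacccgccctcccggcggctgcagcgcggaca
Prickle2 inner start: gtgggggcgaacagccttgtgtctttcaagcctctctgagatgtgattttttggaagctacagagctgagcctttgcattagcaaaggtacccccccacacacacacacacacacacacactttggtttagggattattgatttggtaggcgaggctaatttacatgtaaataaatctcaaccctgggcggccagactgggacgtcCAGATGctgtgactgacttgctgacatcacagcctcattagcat

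The Daam2 window held 1 CRE match, 27 bases before the start counted from its first base, and no match to the other 4 motifs. A CRE match was present in 1.55% of the 32851 promoter windows of the same length. The Daam1 window shown held none of the 5 motifs. The second listed start of Daam1, at chr12:71889543, had no region over it, and its window held 1 match to the TCF4-type E-box. The first start of Prickle2 had 1 E-box match, which 66.2% of all windows had, and the inner start had 1 match to the TCF4-type E-box, found in 14.4% of windows. AP-1 and TCF/LEF matches, present in 6.75% and 3.21% of all windows, were in none of the 4 windows shown. The GC content was 58.4% for Daam2, 58% for Daam1, 70.0% for the first and 48.4% for the inner Prickle2 start, beside a median of 52.4% over all windows. A match describes the letters of a window and is no binding site. Of the other members, Prickle1, Vangl2 and Dvl2 have an entry in this table and Vangl1 and Celsr1 were not matched.

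Of the 106 regions at the 8 genes, 63.2%, 62.3% and 75.5% had a peak in the f/f libraries, beside 69.0%, 68.8% and 82.7% of all regions, and 79.2%, 77.4% and 40.6% had one in the KO libraries, beside 69.6%, 70.9% and 35.8%. The share at the 8 genes was thus below that of all regions in each f/f library and above it in each KO library, KO replicate 3 included, for genes that were chosen with these lists known. Of the 106 regions, 39 (36.8%) had a peak in all 6 libraries, beside 33.4% of all regions, and 16 (15.1%) had one in every library but KO replicate 3, beside 19.2% of all regions. None of the 106 had a peak in 3 of 3 KO and 0 of 3 f/f libraries, a pattern that 0.179% of all regions showed. The reverse pattern was found in 1 region (0.943%), at Prickle2, against 3.75% of all regions. A peak in KO replicates 1 and 2 and in no other library was found in 5 regions (4.72%), 2 at Daam2, 2 at Celsr1 and 1 at Prickle2, against 2.72% of all regions. Among the 39 regions found in all 6 libraries, every KO standing was above every f/f standing in 2 and below in 10, where 3.62% and 25.5% of all such regions did the same. The median KO minus f/f difference of standing was -5.33 percentile points over the 39 regions and -5.72 over all regions of this kind. Without KO replicate 3, 55 of the 106 regions had a peak in every remaining library, and the median difference was -0.176 over these 55 and -1.05 over all 46989 such regions. Both KO standings were above every f/f standing in 15 of the 55 and below in 14, against 19.3% and 27.8% of all such regions. The members differed among themselves.

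**Figure D1:**
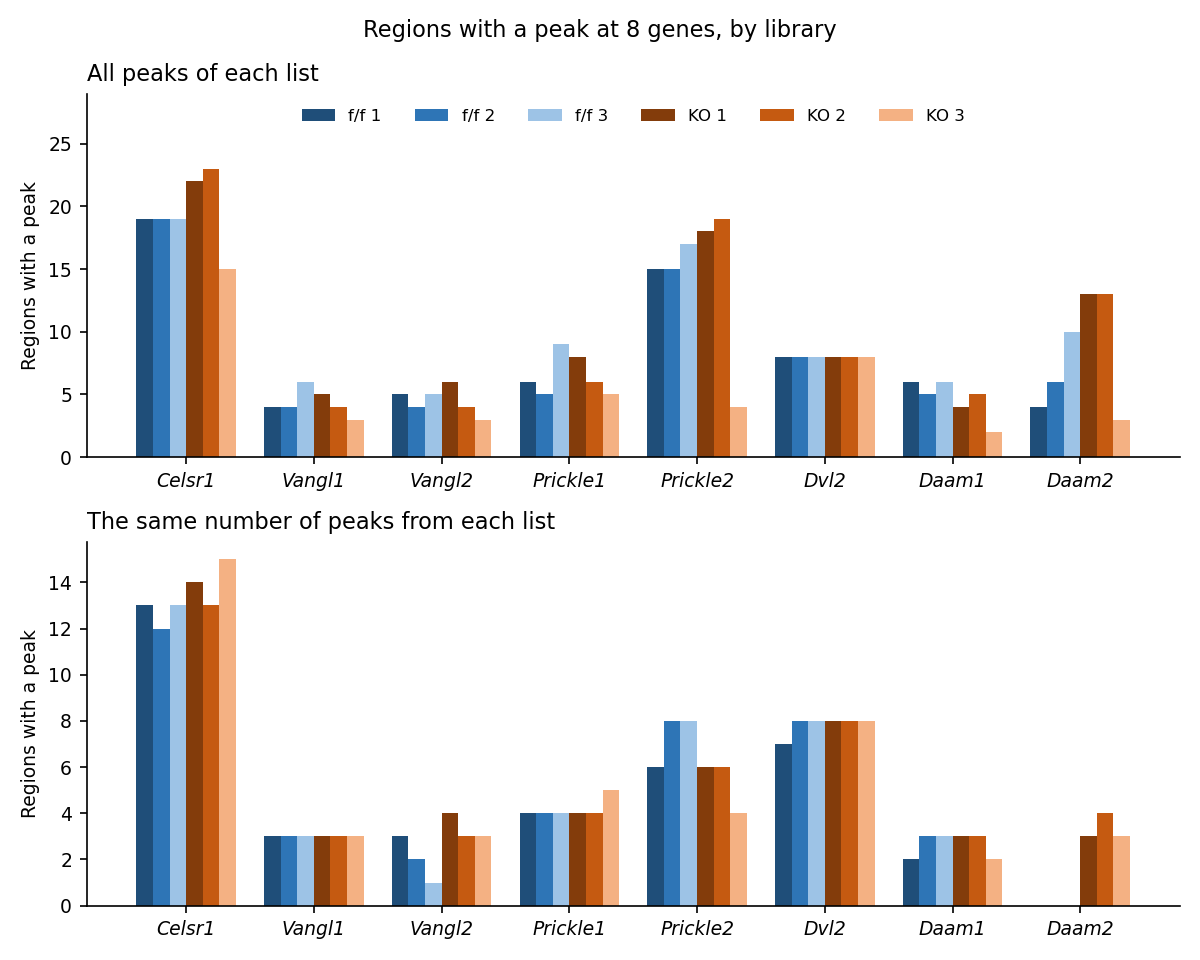
Number of regions with a peak (y axis) at each of the 8 genes (x axis) in the 3 f/f libraries (blue) and the 3 KO libraries (brown), 1 bar per library; the upper panel uses all peaks and the lower panel the 32958 highest peaks of each list. Daam2 has 13 and 13 regions in KO 1 and KO 2 in the upper panel, and in the lower panel it has no bar in f/f and 3, 4 and 3 regions in KO.

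Celsr1, an atypical cadherin that links polarity complexes of adjacent cells, lies at chr15:85898758-86034223 (gene ID 12614) and had 27 regions, the most of the 8 genes. Its f/f libraries had a peak in 19, 19 and 19 of them and its KO libraries in 22, 23 and 15. KO replicates 1 and 2 were above and KO replicate 3 below every f/f library. The difference of the means was 1 region (two-sided exact permutation test over 20 assignments of libraries, p = 1), and 3.5 regions without KO replicate 3. Its highest region, chr15:85935212-85936405, stood at 99.7, 99.5 and 99.7 in f/f and at 99.2, 99.5 and 98.4 in KO. The strongest site of the gene thus stood at the top of every list.

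The region chr15:86000542-86001256 within Celsr1 stood at 11.2, 6.26 and 28.7 in f/f and at 38.9, 47.5 and 3.36 in KO. By standing, KO replicates 1 and 2 were above every f/f library here and KO replicate 3 was below them all. The fold at the summit was 3.05, 2.28 and 3.46 in f/f and 4.29, 5.04 and 2.45 in KO. By fold, KO replicate 3 was within the f/f range. The regions found in KO replicates 1 and 2 alone were chr15:85991986-85992381, within the gene, at standings of 23.2 and 31.3, and chr15:85894234-85894713, which also lies at the neighbouring gene Trmu, at 7.34 and 4.91. Of all regions with the mean KO standing of the former, within 5 percentile points, 10.4% had a peak in KO replicate 3 and 9.37% had none in any f/f library.

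Vangl1 and Vangl2 are membrane proteins that recruit Prickle to the same face of the cell. Vangl1 (gene ID 229658, chr3:102153583-102204744) had 6 regions, with a peak in 4, 4 and 6 in f/f and 5, 4 and 3 in KO, and the exact permutation test gave p = 0.7. The groups overlapped. Its region with the highest mean standing, chr3:102168991-102170097, stood at 83.2, 82.1 and 85.9 in f/f and at 85.6, 82.1 and 66.2 in KO. KO replicate 3 was below every f/f library here, and KO replicates 1 and 2 differed from the nearest f/f library by less than the f/f libraries differed among themselves.

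Vangl2 (gene ID 93840, chr1:172000960-172027318) also had 6 regions, with a peak in 5, 4 and 5 in f/f and 6, 4 and 3 in KO (exact permutation p = 1). The difference of the means was -0.333 regions, and 0.333 without KO replicate 3. The region at its start site, chr1:172026356-172027677, stood at 39.8, 35.6 and 54.8 in f/f and at 62.7, 66.6 and 54.3 in KO. By standing, both long KO lists were above every f/f list, and KO replicate 3 was within the f/f range. The fold at the summit was 5.11, 3.83 and 5.62 in f/f and 7.83, 9.15 and 6.12 in KO. By fold, every KO library was thus above every f/f library. The region with the highest mean standing, chr1:172046594-172047649, lay outside the span and stood at 72.4, 67.8 and 72.4 in f/f and at 63.9, 63.9 and 15.5 in KO, lower in every KO library than in every f/f library.

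Prickle1, a cytoplasmic partner of Vangl, lies at chr15:93499111-93596266 (gene ID 106042) and had 12 regions. Peaks were present in 6, 5 and 9 of them in f/f and in 8, 6 and 5 in KO, with overlapping groups. The region at the first start, chr15:93594891-93596679, had the highest mean standing, at 90.1, 90.3 and 88.9 in f/f and 97.3, 98.4 and 93.2 in KO. Every KO library was above every f/f library there, KO replicate 3 included. The region at the inner start, chr15:93518777-93520007, stood at 89.7, 92.5 and 97.2 in f/f and at 90.0, 87.6 and 71.6 in KO, so that the starts of Prickle1 differed in the direction of their KO minus f/f means.

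Prickle2 (gene ID 243548, chr6:92370891-92706334) is the longest of the 8 genes and had 25 regions, all within the span. A peak was present in 15, 15 and 17 of them in f/f and in 18, 19 and 4 in KO. The difference of the means was -2 regions (exact permutation p = 1) and 2.83 regions without KO replicate 3, which was the sole KO library below f/f. The region at the first start, chr6:92704697-92706767, stood at 86.3, 80.3 and 84.0 in f/f and at 91.4, 91.4 and 73.1 in KO.

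The inner start of Prickle2 showed a wider gap between the groups. Its region, chr6:92480748-92481711, stood at 10.0, 7.91 and 15.2 in f/f and at 47.4 and 44.9 in KO replicates 1 and 2, with no peak in KO replicate 3. The fold at the summit, relative to the local background, was 3.88, 3.0 and 3.68 in f/f and 7.66 and 7.43 in KO. Of 6275 regions with a mean standing in KO replicates 1 and 2 within 5 percentile points of it, 32.3% had a peak in KO replicate 3, and of those present in every f/f library 0.346% had an f/f mean as low. This region was singled out after its values had been seen, so the latter share restates the gap and is no test of it. The region with the highest mean standing among all at Prickle2 was the one at the first start.

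Prickle2 also held regions found in a single group. The region chr6:92424912-92425370 was present in every f/f library, at 14.5, 18.7 and 40.4, and in no KO library. In contrast, chr6:92497289-92497811 had a peak in KO replicates 1 and 2 alone, at 18.5 and 32.0. Among all regions of that KO standing, 9.33% had a peak in KO replicate 3 and 10.5% had none in f/f.

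Dvl2, a dishevelled scaffold that serves both the canonical and the polarity branch of Wnt signalling, is the shortest member (gene ID 13543, chr11:70000592-70010109). It had 8 regions, and all 8 had a peak in all 6 libraries (exact permutation p = 1). The region at its start, chr11:70000244-70001218, was the only one within the span and stood at 86.8, 86.6 and 86.2 in f/f and 84.9, 87.8 and 65.4 in KO. The other 7 lay outside the span, so the count describes a gene-dense neighbourhood more than Dvl2. The region with the highest mean standing, chr11:69979886-69981283, lay at the genes Elp5 and Ctdnep1 and stood at 98.4, 98.5 and 99.0 in f/f and at 95.1, 95.8 and 90.1 in KO.

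Daam1 (gene ID 208846, chr12:71830950-71992376) had 6 regions, with a peak in 6, 5 and 6 in f/f and in 4, 5 and 2 in KO. The difference was -2 regions (exact permutation p = 0.2, and 1 after Benjamini-Hochberg adjustment over the 6 genes tested, as for the other 5), and -1.17 without KO replicate 3 (exact permutation p = 0.3). With 3 libraries against 3 this test cannot give a p below 0.1, so no gene could pass a threshold of 0.05. The start-site region, chr12:71830441-71832590, was the highest of the gene and stood at 91.8, 85.2 and 90.6 in f/f and at 92.3, 93.1 and 82.7 in KO. In rank, where 1 is the highest peak of a list, these were 5227, 9271 and 7000 in f/f and 4970, 4442 and 5702 in KO. Its fold at the summit was 12.5, 9.02 and 10.5 in f/f and 13.4, 13.4 and 9.67 in KO, with overlapping groups.

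The remaining 5 regions of Daam1 stood at or below 71.9 in every library. None of its regions was KO-only, f/f-only or found in KO replicates 1 and 2 alone. In the regions chr12:71936645-71936952 and chr12:71986862-71987558, peaks were present in f/f, and in KO only replicate 2 had one, at a standing of 2.63 in the latter.

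Daam2 (gene ID 76441, chr17:49456022-49564459) had 16 regions, 15 of them within the span. A peak was present in 4, 6 and 10 of them in f/f (6.67 ± 3.06, SD, n = 3) and in 13, 13 and 3 in KO (9.67 ± 5.77, SD, n = 3). KO replicates 1 and 2 were above every f/f library and KO replicate 3 was below them all. The difference of the means, 3 regions, was smaller than the spread within KO, and it was 6.33 regions without KO replicate 3. Among protein-coding genes with 10 or more regions, KO replicates 1 and 2 each exceeded every f/f library in 8.01%. Daam2 was chosen on these counts, so nothing is read from that share.

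The gap at Daam2 was widest at the start site and at intragenic sites far from it. The start-site region, chr17:49564031-49564515, had its summit 39 bp past the first start shown above, and stood at 10.0, 10.3 and 25.0 in f/f and at 52.2 and 53.1 in KO replicates 1 and 2, with no peak in KO replicate 3. In rank, these were 57525, 56252 and 56092 in f/f and 30617 and 30276 in KO. The fold at the summit was 3.88, 3.14 and 4.53 in f/f and 9.19 and 9.53 in KO replicates 1 and 2, both above the highest f/f value. KO replicate 3, below the threshold for a peak there, has no fold to compare. The Daam1 start site stood near the top of all lists in both groups, and that of Daam2 stood in the lower part of the f/f lists and the middle of the long KO lists.

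The intragenic region chr17:49488983-49489851, with its summit 75023 bp past the first start, was the highest of Daam2 and had a peak in all 6 libraries. It stood at 31.9, 27.6 and 41.9 in f/f and at 72.8, 72.7 and 45.9 in KO, a difference of means of 30.0 percentile points and of 39.0 without KO replicate 3. In rank, it was at 43569, 45378 and 43411 in f/f and at 17431, 17642 and 17841 in KO. The rank of KO replicate 3 was close to those of the other KO libraries, and its percentile was lower in its shorter list. That list holds 32958 peaks, so any peak in it ranks ahead of these f/f ranks, and the rank cannot set it apart from f/f. The fold at the summit was 6.06, 4.28 and 6.51 in f/f and 11.1, 10.8 and 5.39 in KO, and by this measure KO replicate 3 was within the f/f range.

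Another intragenic region, chr17:49475006-49475858, had a peak in f/f replicate 3 only among f/f libraries, at 17.5, and in KO stood at 50.3, 50.8 and 1.67. Its ranks were 61733 in f/f replicate 3 and 31881, 31767 and 32410 in KO, the last near the end of the list of KO replicate 3. Any peak of that short list ranks ahead of 61733, so the ranks cannot set KO replicate 3 apart from f/f. The fold at the summit was 3.67 in f/f replicate 3 and 6.07, 5.85 and 2.65 in KO. The −log10 q was 7.57 in f/f replicate 3 and 2.25 in KO replicate 3. The neighbouring region chr17:49473941-49474581 had a peak in all 6 libraries, at 22.0, 24.5 and 36.5 in f/f and 34.8, 50.2 and 21.4 in KO, with overlapping groups. The annotation used here gives gene spans without exons, so these regions are placed within the gene and not in an exon or intron.

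**Figure D2:**
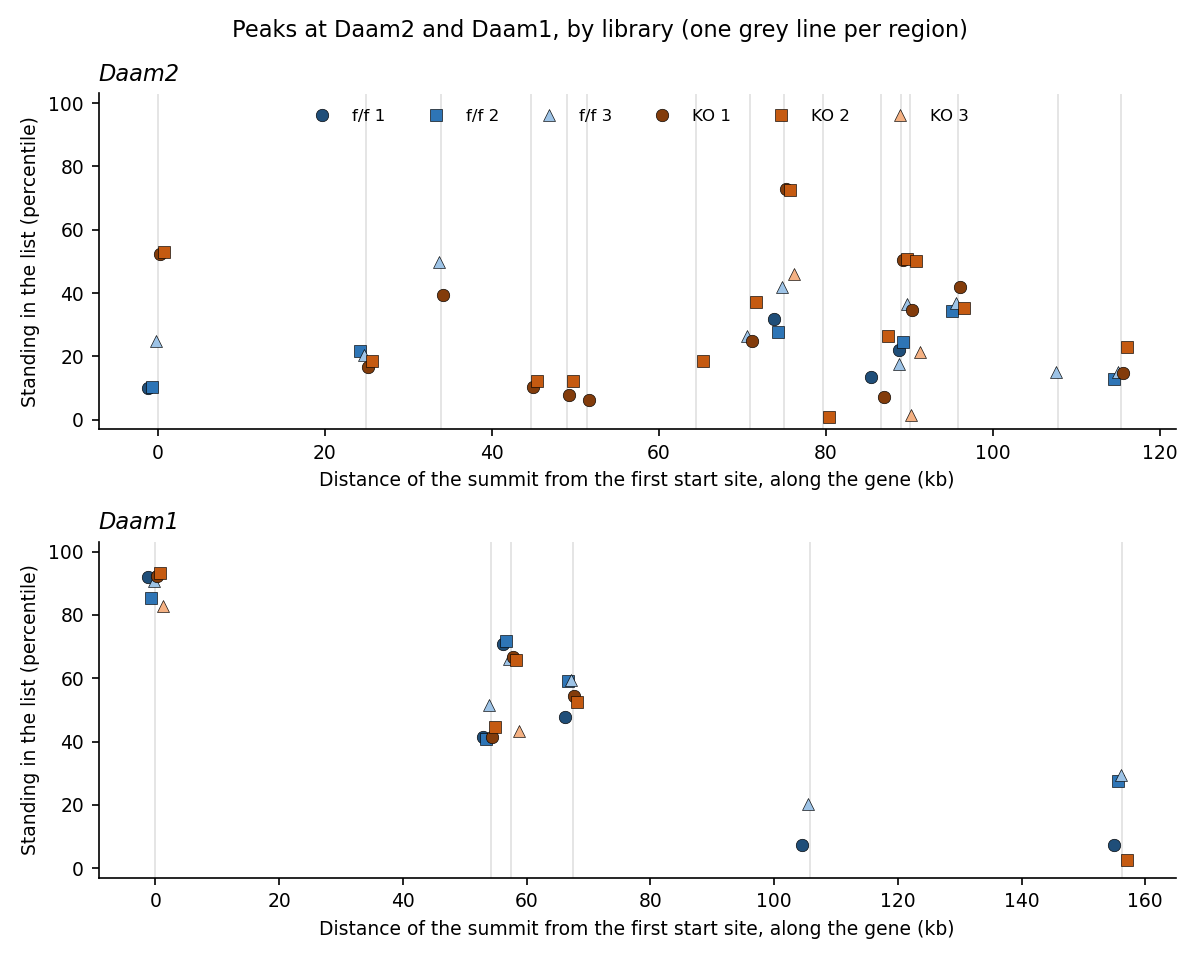
Standing of each peak in its list (y axis, percentile by −log10 q, 100 highest) against the distance of the region's summit from the first start site along the gene (x axis, kb), for Daam2 (upper panel) and Daam1 (lower panel); points are single libraries, f/f in blue and KO in brown, offset sideways for legibility, and grey lines mark regions. At the Daam2 start the KO 1 and KO 2 points lie at 52.2 and 53.1, above f/f points at 10.0, 10.3 and 25.0, and at the Daam1 start all 6 points lie between 82.7 and 93.1.

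The regions of Daam2 found in KO replicates 1 and 2 alone were weak. The region chr17:49515110-49515404 stood at 7.80 and 12.3 and chr17:49519589-49519978 at 10.5 and 12.3, in the lowest part of both lists. Among 3517 regions with the mean KO standing of the former, 3.70% had a peak in KO replicate 3 and 23.3% had none in any f/f library, and for the latter the shares were 3.99% and 22.0% of 3886 regions. Absence from KO replicate 3 was thus common for peaks of that standing. Absence from every f/f library was found in the minority, at 23.3% and 22.0%. The start-site region was absent from KO replicate 3, in which 46.3% of 6097 regions of its KO standing had a peak, and present in every f/f list, as were 92.0% of them. For the region 75023 bp into the gene, which KO replicate 3 also held, 93.1% of the regions of its KO standing had a peak in that list.

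**Figure D3:**
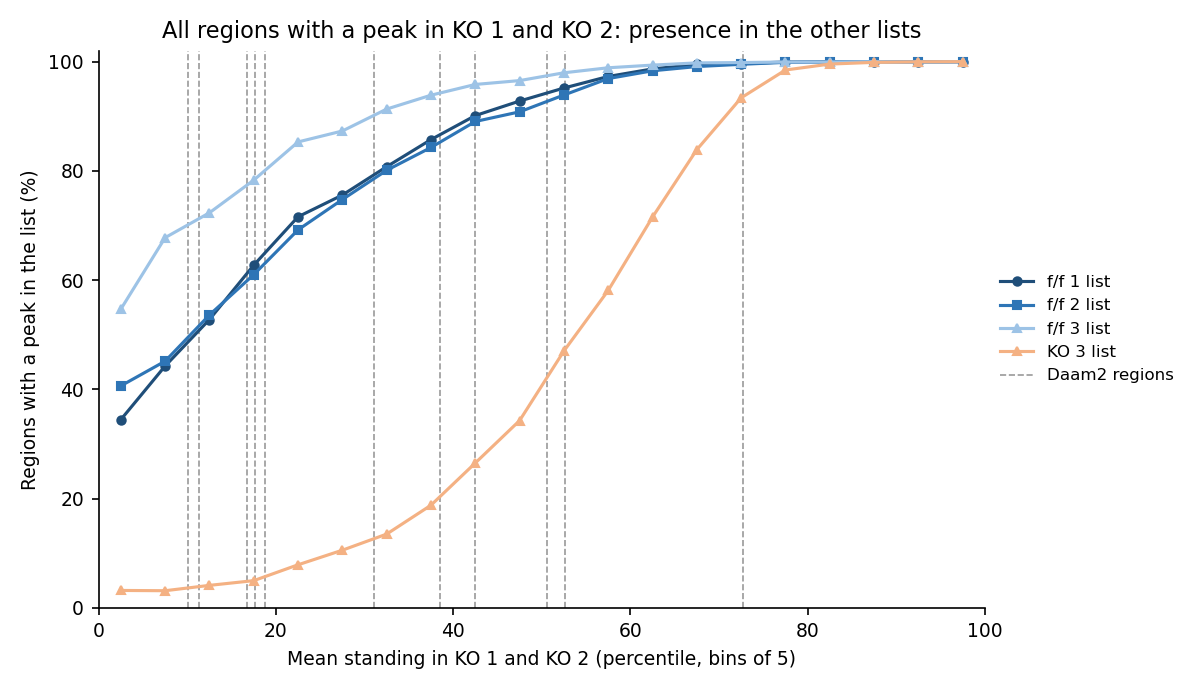
Share of all regions with a peak in KO 1 and KO 2 that also have one in the lists of f/f 1, f/f 2, f/f 3 and KO 3 (y axis, %), against their mean standing in KO 1 and KO 2 (x axis, bins of 5 percentile points); dashed lines mark the Daam2 regions. The share for KO 3 is 4.11% between 10 and 15, 47.0% between 50 and 55 and 93.4% between 70 and 75, while that for each f/f list is 93.9% or more from 50 upwards.

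The other 10 regions of Daam2 were found in fewer libraries. In 3 of them, f/f replicates 2 and 3 and KO replicates 1 and 2 had a peak. These were chr17:49448754-49449338, which also lies at Mocs1, at 12.7 and 15.2 in f/f and 14.7 and 22.9 in KO, chr17:49468298-49468829 at 34.4 and 36.8 in f/f and 41.8 and 35.3 in KO, and chr17:49538893-49539545 at 21.6 and 20.3 in f/f and 16.6 and 18.6 in KO. The standings of the groups overlapped or lay close together in these 3 regions.

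Peaks in KO replicates 1 and 2 were joined by 1 f/f library in 2 regions of Daam2, chr17:49493294-49493564 (26.4 in f/f replicate 3, 25.0 and 37.1 in KO) and chr17:49477465-49477853 (13.6 in f/f replicate 1, 7.08 and 26.4 in KO). The region chr17:49530226-49530545 had a peak in f/f replicate 3 at 49.8 and in KO replicate 1 at 39.4. In 4 regions a single library had a peak, f/f replicate 3 in chr17:49456355-49456566 at 15.2, KO replicate 1 in chr17:49512738-49512981 at 6.29, and KO replicate 2 in chr17:49484165-49484732 at 0.787 and in chr17:49499659-49499899 at 18.6. Low peaks of this kind were present in both groups, but those of a single library lay more often in KO and added more to its counts.

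The unequal lengths of the lists were set aside by taking the 32958 highest peaks of each library. Daam2 then had a peak in 0, 0 and 0 of 4 regions in f/f and in 3, 4 and 3 in KO, and Daam1 in 2, 3 and 3 of 3 regions in f/f and 3, 3 and 2 in KO. At Daam2 all KO libraries, KO replicate 3 included, were then above all f/f libraries, and at Daam1 the groups overlapped. Daam2 was chosen on such counts, and the share of all genes that separate in this way was not computed. Nothing is read from the separation. The peaks that this setting dropped could exceed those it kept in KO replicate 3. At chr17:49473941-49474581 it kept KO replicate 3, with a −log10 q of 6.12 and a fold of 3.67. It dropped the f/f peaks there, with a −log10 q of 8.19, 8.34 and 17.9 and a fold of 4.78, 3.97 and 5.42. Under this setting 3 of 54 regions at the 8 genes were found in 3 of 3 KO and 0 of 3 f/f libraries, against 2.6% of all 42821 regions. These were chr17:49475006-49475858 and chr17:49488983-49489755 at Daam2 and chr1:172026646-172027656 at the start of Vangl2. The first of them ranked 31881, 31767 and 32410 in KO, close to the end of the 32958 peaks taken. The reverse pattern was found in 2 regions, chr6:92427468-92428298 at Prickle2 and chr15:85913748-85914097 at Celsr1, against 2.83% of all regions. The Daam2 start-site region, chr17:49564034-49564515 here, had a peak in KO replicates 1 and 2 alone.

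Start sites were compared among the members after their values had been seen. Of the 9 regions over a listed start window of a member, 8 had a peak in every f/f library and in KO replicates 1 and 2. Both KO standings were above every f/f standing in 6 of these 8, those of Daam2, the inner and the first start of Prickle2, Vangl2, the first start of Prickle1 and Daam1, and below in 0, against 26.2% above and 22.7% below among all 10073 such regions over start windows. Daam2 and Prickle1, which supply 2 of the 6, were in the study's list of opened genes, and the count is a description. The median difference between KO replicates 1 and 2 and f/f was 7.98 percentile points over the 8 regions and 0.0927 over the 10073. With KO replicate 3, 6 of these regions had a peak in all 6 libraries and every KO standing was above every f/f standing in 1, at the first start of Prickle1, and below in 0, against 6.1% and 21.6% of all 9371 such regions over start windows. The rises differed in size, at 37.6 points for Daam2, 35.1 for the inner start of Prickle2, 21.3 for Vangl2 and 3.45 for Daam1. Over all 46989 regions, 0.443%, 2.96% and 25.8% rose by as much as the latter 3.

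**Figure D4:**
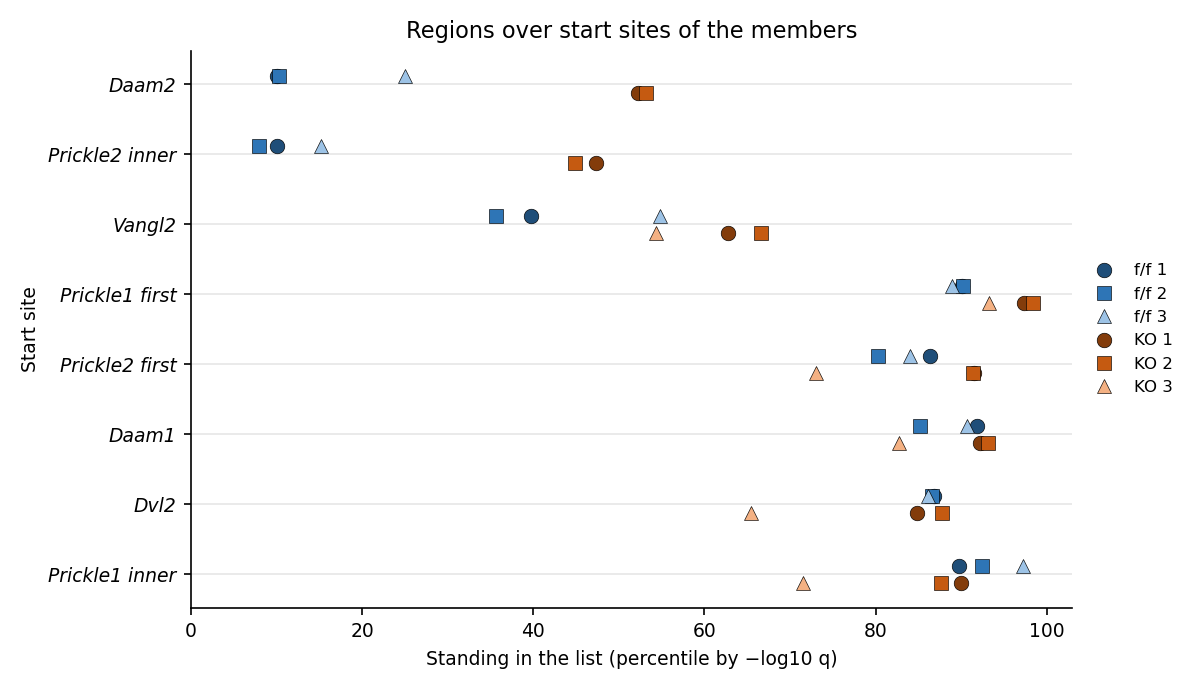
Standing in the list (x axis, percentile by −log10 q, 100 highest) of the 8 regions over start sites of members present in the 3 f/f lists and in KO 1 and KO 2 (y axis, ordered by the difference between KO 1 and KO 2 and f/f); points are single libraries, f/f in blue above the line and KO in brown below it. Daam2 and the inner start of Prickle2 have f/f points at or below 25.0 and KO points from 44.9 to 53.1 with none for KO 3, and Prickle1 first is the one start where all 3 KO points lie to the right of all f/f points.

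The surroundings of Daam2 showed no such gap between KO replicates 1 and 2 and f/f. Within 500 kb beyond the extended span on either side, 11 regions were found, with a peak in 7, 6 and 9 in f/f and in 7, 7 and 3 in KO. The same distance around Daam1 held 31 regions, with a peak in 22, 19 and 25 in f/f and 20, 22 and 5 in KO. In both surroundings KO replicates 1 and 2 were within the f/f range.

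The genes most like Daam2 were taken by the share of their regions with a peak in each of the 6 libraries, relative to the share over all regions, as the Euclidean distance of the log2 ratios among protein-coding genes with 10 or more regions. They were Csf2rb2, 7530416G11Rik, Fignl2, Anks1b and Arhgef7, at distances of 0.605 to 0.694. Anks1b, with a peak in 7, 10 and 13 of 20 regions in f/f and in 15, 17 and 5 in KO, had the closest size of difference per region, and Csf2rb2, with 4, 5 and 7 of 13 regions in f/f and 8, 9 and 2 in KO, was nearest by distance. No member of the polarity set or of the formins was among these 5, but only genes with 10 or more regions could be. Daam1, Vangl1, Vangl2, Dvl2 and the polarity gene Fzd6 hold fewer, so nothing is read from their absence.

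Other genes of planar polarity were counted from a list of 32 genes, all of which were found in the annotation, with 288 regions. Of these, 105 (36.5%) had a peak in all 6 libraries, 2 (0.694%) were KO-only, 12 (4.17%) f/f-only and 4 (1.39%) in KO replicates 1 and 2 alone. The shares of all regions were 33.4%, 0.179%, 3.75% and 2.72%, so the f/f-only share was near the background. KO replicates 1 and 2 each had more regions with a peak than every f/f library at 2 of the 32 genes and fewer at 3, as did 4.43% and 10% of all 18160 protein-coding genes with a region. The former were Fzd6, a Frizzled receptor, with 4, 5 and 4 regions in f/f and 8, 7 and 6 in KO, and Ankrd6 (Diversin), a Dvl partner, with 7, 7 and 9 in f/f and 16, 11 and 6 in KO. The latter were the Wnt5a receptor Ror1, with 24, 24 and 32 of 45 regions in f/f and 6, 9 and 1 in KO, the ubiquitin ligase Smurf2, with 3, 3 and 7 in f/f and 2, 2 and 2 in KO, and the kinase gene Mapk9, with 6, 7 and 8 in f/f and 5, 5 and 2 in KO. Ror1 (chr4:100095791-100444806) held 8 of the 12 f/f-only regions, and Cdc42, a small GTPase that shapes actin, held 2. The f/f-only share of the list thus rests mainly on the locus of Ror1, and whether its neighbours share the pattern was not tested. KO-only regions were found at Fzd6 and Ankrd6, 1 at each.

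At the 13 other formins 172 regions were found. Of them, 70 (40.7%) were present in all 6 libraries, 0 were KO-only, 4 (2.33%) f/f-only and 4 (2.33%) in KO replicates 1 and 2 alone, beside 33.4%, 0.179%, 3.75% and 2.72% of all regions. The share of KO replicates 1 and 2 alone was near the background, and the f/f-only share, below it, also rests on 4 regions. KO replicates 1 and 2 each exceeded every f/f library at 2 of the 13 formins, as at 4.43% of all 18160 protein-coding genes with a region. These were Diaph2, with 5, 4 and 5 of 7 regions in f/f and 6, 7 and 3 in KO, and Fmn1, with 17, 18 and 20 of 24 in f/f and 21, 21 and 11 in KO. Diaph3 and Fmnl2 each had 1 f/f-only region and 1 in KO replicates 1 and 2 alone. The difference between KO replicates 1 and 2 and f/f was 1.83 regions for Diaph2 (26.2% of its regions) and 2.67 for Fmn1 (11.1%). From the polarity list it was 5.83 for Ankrd6 (34.3% of 17 regions) and 3.17 for Fzd6 (39.6% of 8), beside 6.33 for Daam2 (39.6% of 16), so that these polarity genes came close to Daam2.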

How the data were processed

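The ATAC-seq of OB Fam20c f/f (3 libraries) and OB Fam20c KO (3 libraries) was analysed from the deposited peak lists, 1 per library, with groups and replicate numbers from the sample labels. Reads had been trimmed (Trimmomatic) and mapped to mm10 (BWA) by the authors, whose peaks come from MACS2 2.1.2 with a q-value limit of 0.05. The deposited columns used were the summit's fold relative to local background, a ratio, and the −log10 q, both made by the authors with MACS2. The authors' pairwise test on read counts was not used here, and read depth is not part of the lists. The study reports more clean reads for KO replicate 3 than for f/f replicate 1, whose list is longer. List length is thus not a measure of read number.

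Peaks of the autosomes and of chromosomes X and Y were merged at an overlap of 1 bp and tied to RefSeq spans of GRCm38.p6, which shares its coordinates with mm10, extended by 20 kb (3 kb for marker genes). Members, lists and comparisons were chosen with earlier results of these data known. Regions named singly were all those of Daam2, the highest of each other member, those of a one-sided pattern, and others chosen after their values were seen. The 6 genes outside the study's list were compared by a two-sided exact permutation test with Benjamini-Hochberg adjustment, and the procedure was tested on simulated lists. The scripts ran in Python 3.11.15 with scipy 1.17.1, pandas 2.3.3, numpy 2.4.6 and matplotlib 3.10.9.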

Additional observations from a re-analysis of the deposited data

How the results depend on the processing

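A missing peak is a call at the authors' threshold, and the lists differ in length, so presence rests on depth and enrichment as well as on chromatin. With lists of equal length, KO-only regions at the 8 genes numbered 3 in place of 0, f/f-only regions 2 in place of 1, regions in KO replicates 1 and 2 alone 1 in place of 5, and the KO minus f/f difference at Daam1 was 0 and at Vangl2 1.33 regions in place of -0.333. With peaks of a −log10 q of 5 or more, regions in KO replicates 1 and 2 alone numbered 3, and the differences turned to 0.333 at Vangl1 and -0.333 at Celsr1. An extension of 50 kb gave 3 f/f-only regions, and one of 3 kb gave -0.333 at Celsr1. The difference at Daam2 stayed positive under each of the 6 alternatives to the counting of peaks, between 2 and 3.33 regions, and the smallest exact permutation p that these 6 gave for any tested gene was 0.1, for Dvl2 at 50 kb.

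Leaving out each library in turn moved KO-only regions between 0 and 5, the latter without KO replicate 3, f/f-only regions between 1 and 3, and regions found in all libraries between 39 and 55. The difference ranged from 1.33 to 6.33 at Daam2, the lowest without KO replicate 1 or 2, from -2.67 to -1.17 at Daam1, from -4.67 to 2.83 at Prickle2 and from -1.17 to 0.333 at Vangl2, both positive only without KO replicate 3, from -1.17 to 0 at Vangl1, and from -0.5 to 3.5 at Celsr1. The exact permutation p was 0.1, the smallest it can give, for Daam1 without KO replicate 2 and for Celsr1 without KO replicate 3. The standing difference ranged from 35.0 to 42.5 at the Daam2 start, from 25.5 to 39.0 at its highest region and from -1.88 to 3.45 at the Daam1 start. KO replicate 3 had no peak at the Daam2 start, so the KO mean there rests on KO replicates 1 and 2 in every setting.

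By fold at the summit the difference at the Daam2 start was 44.0 percentile points in place of 37.6, and ranked among regions of all 6 libraries that at the Daam1 start was 7.10 in place of 0.121. Taking all 3 KO replicates in place of 2 left 1 start site above every f/f in place of 6, an alternative chosen after seeing the data. With a replicate block the differences are the same by construction, -2 for Daam1, and the exact permutation of 3 paired signs gave p from 0.5 to 1, with 0.25 as its smallest possible value; same-numbered libraries correlated at -0.0857, -0.214 and -0.379 in their deviations, so the numbers are not taken to pair them. Of 170 recomputed values, 15 were classed as moved, by over 1.5 times for counts or by over 1 SD for standings and for Daam2 beside Daam1. The differences of the 6 tested genes were classed by sign alone, and 7 of those values changed sign. A change in size without one, such as from 0 to -3.67 at Dvl2 with 50 kb, is therefore not among the 15. The replicate block values were also classed as unchanged.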

Other observations

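The extended spans of the members also take in start sites of neighbouring genes. Next to Dvl2, the region chr11:69996623-69997545 at Phf23 stood at 46.5, 50.3 and 65.5 in f/f and at 78.1, 80.1 and 60.5 in KO. By standing, KO replicates 1 and 2 were above every f/f library and KO replicate 3 was within the f/f range. Its fold at the summit was 2.79, 2.48 and 3.14 in f/f and 5.00, 5.10 and 3.86 in KO, higher in every KO library. The region chr11:70020120-70021943 at Dlg4, which encodes a synaptic scaffold, stood at 96.0, 95.9 and 96.8 in f/f and at 89.0, 92.0 and 80.3 in KO, lower in every KO library than in every f/f library. At Trmu, a neighbour of Celsr1 that modifies mitochondrial transfer RNA, the region chr15:85878663-85880114 stood between 97.3 and 99.0 in all 6 libraries. These regions were chosen after their values were seen and were not tested.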
